A study of Mus musculus with 11 samples.

Results

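The genes described here are 9 regulators of the primitive endoderm, measured by RNA sequencing in mouse embryonic stem cells in which the DNA-binding protein CTCF was depleted and reintroduced. They are Gata6, Gata4, Sox17, Sox7, Foxa2 and Foxq1, which encode transcription factors, Pdgfra and Pth1r, which encode receptors, and Dab2, which encodes an endocytic adaptor. The 9 symbols were chosen from a list drawn up with earlier results of these data in view, out of 55228 gene symbols in the tables, and all 9 were among the 16420 genes with enough counts to be tested. Because of that choice, the levels, fold changes and calls of the 9 genes are a description of these libraries and carry no p-value here.

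All cells were of the line EN52.9.1, in which the endogenous CTCF carries an auxin-inducible degron (CTCF-AID), grown in serum with LIF. The untreated group was cells labelled EV without auxin (EV untreated, 3 libraries). The other groups received 500 µM indole-3-acetic acid, an auxin that triggers loss of the tagged protein: EV cells (EV auxin, 2 libraries), cells with FL CTCF reintroduced (FL, 3 libraries), and cells with CTCF carrying the H373R substitution reintroduced (H373R, 3 libraries, whose titles read ZF4). A further EV auxin library was not analysed here. The duration of auxin, the driver of the reintroduced CTCF, whether the reintroduced lines are clones, and whether replicates are separate cultures are not given in the sources used here, so the spread between libraries may be technical. No control for auxin itself, such as treated cells with untagged CTCF, was analysed here.

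The primitive endoderm is the lineage that separates from the pluripotent epiblast in the blastocyst and goes on to form the visceral and parietal endoderm of the yolk sac. FGF signalling through ERK favours GATA6 over NANOG in these cells, and GATA6 is followed by GATA4, SOX17 and SOX7. Embryonic stem cells kept in serum with LIF are known to hold a minor fraction of cells that express such genes. In bulk RNA, more cells of such a type and more RNA per cell cannot be told apart, which applies to every value below.

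Promoter windows show the DNA before the start sites of members that moved together. RefSeq (GRCm38.p6) gave windows for 4 of the 9 genes (Pdgfra, Dab2, Foxa2 and Pth1r), 9 windows in all since 3 of these genes have several start sites. The 250 bases before the start site are given 5′ to 3′ in the direction of the gene for Pdgfra, for both starts of Dab2 and, as a comparison, for the outermost starts of Foxa2 and of Pth1r, the member with the smallest difference between FL and EV auxin. Capitals mark matches on either strand to the letters GATAA (bound by GATA factors), to CCCTC (core letters of CTCF sites) and to a G-quadruplex pattern of 4 runs of at least 3 G separated by 1 to 7 bases, so a match on the opposite strand is capitalised as its complement, such as TTATC, or GAGGG in place of CCCTC.
Pdgfra (chr5:75152001-75152250, plus strand): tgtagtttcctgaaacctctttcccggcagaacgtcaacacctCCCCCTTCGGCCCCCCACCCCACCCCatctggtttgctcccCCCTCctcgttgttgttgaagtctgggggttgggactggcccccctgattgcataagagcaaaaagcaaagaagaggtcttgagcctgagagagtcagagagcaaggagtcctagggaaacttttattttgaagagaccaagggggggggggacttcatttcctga
Dab2, upstream start (chr15:6299539-6299788, plus strand): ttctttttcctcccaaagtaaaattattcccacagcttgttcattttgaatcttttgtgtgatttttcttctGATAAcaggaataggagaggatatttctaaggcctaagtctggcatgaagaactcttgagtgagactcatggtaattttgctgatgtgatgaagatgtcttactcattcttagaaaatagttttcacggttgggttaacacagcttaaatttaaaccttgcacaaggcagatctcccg
Dab2, downstream start (chr15:6386498-6386747, plus strand): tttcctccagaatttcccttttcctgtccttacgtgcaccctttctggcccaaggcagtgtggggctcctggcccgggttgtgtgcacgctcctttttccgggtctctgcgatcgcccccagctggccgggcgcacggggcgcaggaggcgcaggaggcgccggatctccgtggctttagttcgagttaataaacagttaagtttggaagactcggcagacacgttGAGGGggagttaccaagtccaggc
Foxa2, outermost start (chr2:148046970-148047219, minus strand): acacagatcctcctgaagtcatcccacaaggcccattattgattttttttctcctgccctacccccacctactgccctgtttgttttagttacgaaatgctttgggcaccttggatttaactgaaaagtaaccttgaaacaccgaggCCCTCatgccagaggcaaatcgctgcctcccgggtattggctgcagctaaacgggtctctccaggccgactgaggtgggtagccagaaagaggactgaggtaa
Pth1r, outermost start (chr9:110747146-110747395, minus strand): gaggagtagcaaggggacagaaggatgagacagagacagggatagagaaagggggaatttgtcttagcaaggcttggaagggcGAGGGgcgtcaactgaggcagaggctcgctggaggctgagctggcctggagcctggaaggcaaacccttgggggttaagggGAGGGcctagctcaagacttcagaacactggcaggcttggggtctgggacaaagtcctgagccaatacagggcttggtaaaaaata

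The window of Pdgfra held 1 CCCTC and a G-quadruplex pattern of 26 bases on the opposite strand. The upstream start of Dab2 held 1 GATAA and no CCCTC, its downstream start, 86960 bases further on, held 1 CCCTC on the opposite strand, and neither held the G-quadruplex pattern. Over the 9 windows of the 4 genes, 3 held GATAA, 8 CCCTC and 4 the G-quadruplex pattern. The windows of Pth1r that are not printed held the G-quadruplex pattern over 24 and 94 bases, and the first of them also GATAA. Of the windows of Foxa2 that are not printed, 1 held the pattern over 16 bases and the other GATAA. Among all 32851 RefSeq windows of 250 bases the shares were 22.6%, 60.5% and 16.7%. The letters ACAAT (SOX factors, 27.7% of all windows) and TGTTTAC (forkhead factors, 3.2%) were in none of the 9. A CCCTC match can lie inside a G-quadruplex pattern. These are matches of letters in reference DNA, and binding was not measured in these files.

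The libraries held 13465241 to 29902246 counts each. The labelled cell type was checked first. All 10 embryonic stem cell markers of the list were tested, and in every library Pou5f1 (1632 to 1764 TPM), Nanog (863 to 1285 TPM) and Sox2 (941 to 1087 TPM) stood far above the 9 genes, whose summed level was 28.5 to 84.9 TPM. TPM is the count per length of the gene, scaled to the same total in every library, so that it can be compared between genes. EV untreated replicate 1 stood apart from the other libraries: its deviation from the group mean correlated with gene GC content at r = 0.576 across 16242 genes, against -0.387 to 0.334 for the other libraries, and counts are given without it where it changes a call.

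The first comparison was that of auxin alone. In EV auxin against EV untreated, 2 of the 9 were called higher (edgeR, Benjamini-Hochberg adjusted p under 0.05), Gata4 and Pth1r, beside 11.3% of all tested genes, and none was called lower, beside 9.4%. Without EV untreated replicate 1 the count was 4, with Sox17 higher and Dab2 lower, and without H373R replicate 1 or 2 it was 3, with Pdgfra lower. At an unadjusted edgeR p under 0.05, 1 was lower, and DESeq2 and limma called none lower. The median log2 fold change of the 9 was 0.098, against 0.009 for all tested genes.

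With FL CTCF, 8 of the 9 genes were called higher than in EV auxin, all but Pth1r, beside 11.1% of all tested genes, and none lower, beside 13.4%. With H373R the same 8 were called higher than in EV auxin, beside 10.03%, and none lower, beside 11.7%. DESeq2 called 7 of the 9 higher in H373R, without Foxa2. Neither comparison had a member lower at an unadjusted edgeR p under 0.05 (0 of 9 in each) or by DESeq2 or limma. On log2(TPM + 1) with limma the share of higher genes among all called genes fell from 45.2% to 28.1% for FL, and the 8 genes were called higher there too. For H373R it was 35.4% in place of 46.1%, and 5 of the 9 genes were called, without Sox7, Foxa2 and Foxq1. These 3 genes also lost the H373R call without EV auxin replicate 2, Foxa2 and Foxq1 without EV auxin replicate 1, Foxa2 and Sox7 without H373R replicate 1, Sox7 and Foxq1 without H373R replicate 2, and Foxa2 without H373R replicate 3. The FL call of Foxa2 was lost without EV auxin replicate 1. The medians over the 9 genes were 1.339 for FL and 0.944 for H373R on the log2 scale, against -0.014 and 0.0 for all tested genes. The 2 comparisons share the EV auxin libraries, so they are not independent of each other.

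The levels in FL and H373R also exceeded those of the untreated cells. Against EV untreated, all 9 were called higher in FL, beside 17.7% of all tested genes, and all 9 in H373R, beside 22.3%. For 8 of the 9 genes, all but Pth1r, every FL library lay above all 5 EV libraries on the CPM scale (counts scaled to library size), which held for 11.5% of tested genes. The same 8 genes had every H373R library above all 5 EV libraries, which held for 15.4%.

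H373R libraries were lower than FL libraries for most of the set. In H373R against FL, 5 of the 9 were called lower (Gata6, Gata4, Foxq1, Pdgfra and Dab2), beside 2.82% of all tested genes, and none higher, beside 3.14%. At an unadjusted edgeR p under 0.05, 1 was higher (Pth1r), and DESeq2 and limma called none higher and 4 lower each. Among all genes called, 52.7% were higher in H373R by edgeR and 65.0% by limma on log2(TPM + 1). Every FL library lay above every H373R library for 7 genes, the called 5 with Sox17 and Sox7, which held for 13.4% of tested genes. Foxa2 overlapped between the 2 groups and Pth1r lay the other way. Without EV untreated replicate 1, which enters only the shared estimate of spread, 8 were called, with Sox17 and Sox7 lower and Pth1r higher. Foxq1 lost its call without any of the 2 EV auxin libraries, FL replicates 2 and 3 or the 3 H373R libraries, each left out alone. Set against the FL gain over EV auxin in CPM, the H373R gain of the 8 genes was 35.3% (Pdgfra) to 69.7% (Foxa2), a ratio that shares the EV auxin mean and carries no error here.

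**Figure D1:**
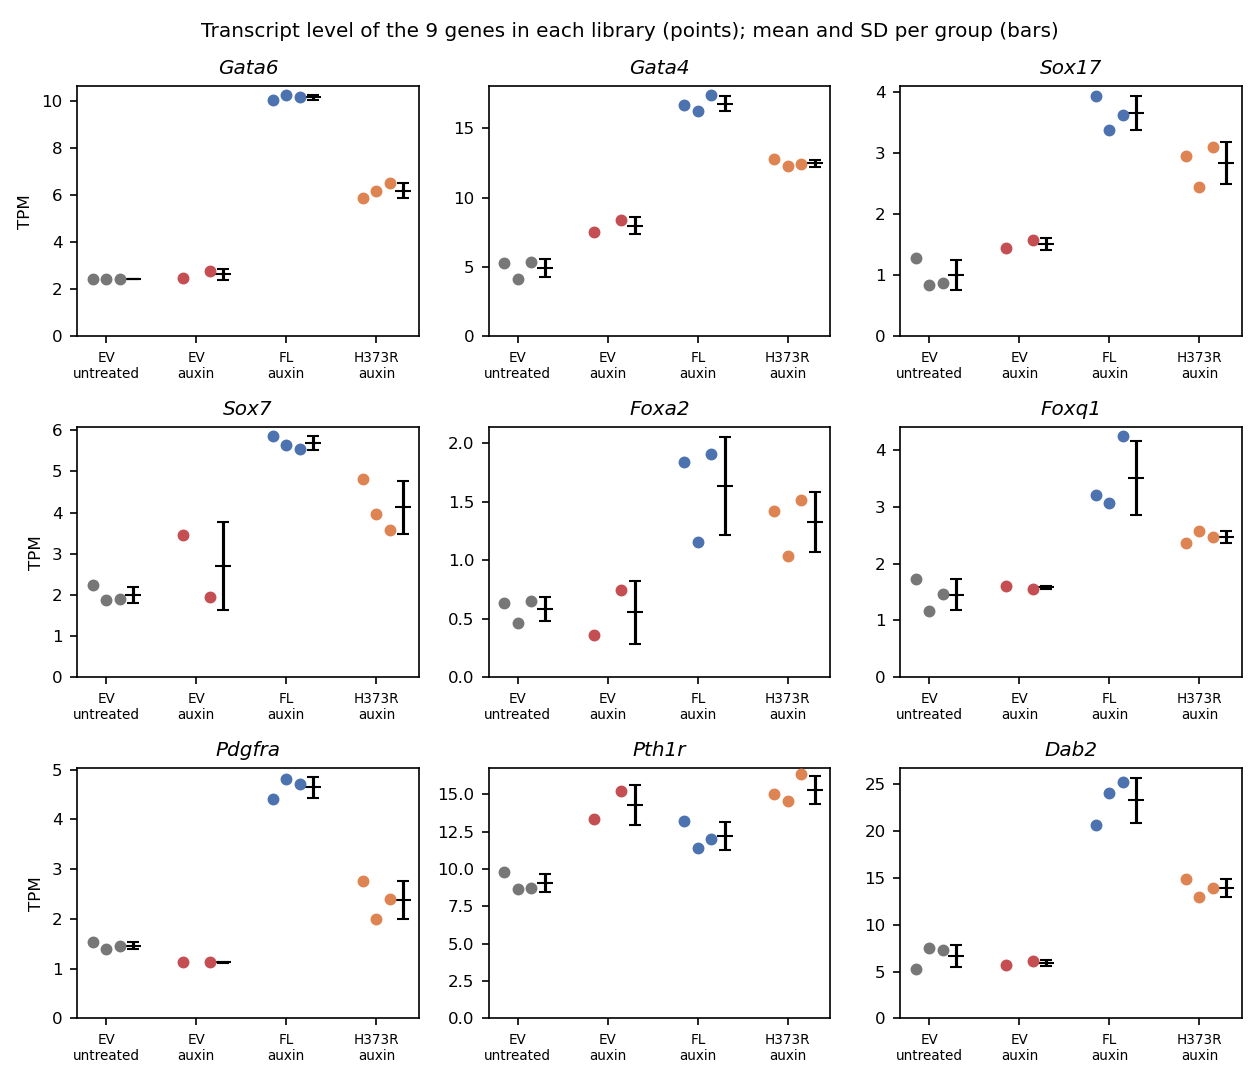
TPM of each of the 9 genes by group, with the groups along the horizontal axis, 1 point per library and the mean with its SD beside the points. In 8 panels the FL points lie above all EV points, while Pth1r is lowest in EV untreated.

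Among the transcription factors, Gata6, which starts the primitive endoderm program, had libraries close together within each group. This gene (chromosome 18, 11052064 to 11085635, plus strand, GRCm38) stood at 2.42, 2.44 and 2.45 TPM in the EV untreated libraries and at 2.48 and 2.79 TPM in EV auxin. It stood at 10.05, 10.2 and 10.2 TPM in FL and at 5.88, 6.18 and 6.52 TPM in H373R. The EV groups were nearly level, no FL or H373R library overlapped with them, and FL lay above H373R throughout. The log2 fold change was 0.098 ± 0.11 (SE) for EV auxin against EV untreated and 2.00 ± 0.098 (SE) for FL against EV auxin. For H373R it was 1.26 ± 0.10 (SE) against EV auxin and -0.74 ± 0.074 (SE) against FL.

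Gata4, the related GATA factor that acts after Gata6, was called in each of these 4 comparisons, the only transcription factor of the set for which this held. It lies on chromosome 14 (63198922 to 63271692, minus strand). The EV untreated libraries held 5.28, 4.16 and 5.37 TPM and the EV auxin libraries 7.55 and 8.41 TPM. FL held 16.7, 16.3 and 17.4 TPM, and H373R 12.8, 12.3 and 12.4 TPM. The 4 groups did not overlap, in the order EV untreated, EV auxin, H373R, FL. After auxin the log2 fold change was 0.66 ± 0.11 (SE), with 1.14 ± 0.0995 (SE) for FL and 0.68 ± 0.0999 (SE) for H373R against EV auxin, and -0.46 ± 0.081 (SE) for H373R against FL.

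Sox17 and Sox7 encode related SOX factors of the endoderm and were present at lower levels. Sox17 (chromosome 1, 4490931 to 4497354, minus strand) held 1.28, 0.841 and 0.878 TPM in EV untreated, 1.44 and 1.58 TPM in EV auxin, 3.95, 3.39 and 3.64 TPM in FL and 2.96, 2.46 and 3.10 TPM in H373R. The order of its groups was that of Gata4, but the steps after auxin (0.55 ± 0.22, SE) and from FL to H373R (-0.40 ± 0.14, SE) did not pass the threshold. Against EV auxin its log2 fold change was 1.34 ± 0.18 (SE) in FL and 0.94 ± 0.18 (SE) in H373R. Sox7 (chromosome 14, 63943673 to 63950732, plus strand) held 2.23, 1.88 and 1.90 TPM in EV untreated and 3.46 and 1.95 TPM in EV auxin. Its EV auxin libraries were thus far apart, and the lower of them lay within the untreated range. FL held 5.87, 5.65 and 5.55 TPM and H373R 4.83, 3.98 and 3.57 TPM. The log2 fold change of Sox7 against EV auxin was 1.19 ± 0.20 (SE) in FL and 0.69 ± 0.21 (SE) in H373R, and -0.50 ± 0.16 (SE) between H373R and FL, which did not pass.

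Gata4 and Sox7 lie on the same chromosome, 672.0 kb apart, with 13 annotated genes between them, of which 5 were tested. Their levels correlated at r = 0.924 on log2 CPM over the 11 libraries, and at r = -0.086 with the group means removed.

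Foxa2 was the least abundant of the 9 genes in every group by its mean TPM. This forkhead factor (chromosome 2, 148042877 to 148046969, minus strand), which opens chromatin in endoderm, had only 4 to 25 counts per library. Its level was 0.632, 0.462 and 0.648 TPM in EV untreated, 0.363 and 0.747 TPM in EV auxin, 1.84, 1.16 and 1.91 TPM in FL and 1.42, 1.03 and 1.52 TPM in H373R. The EV groups overlapped, as did FL and H373R, and the depth leaves wide errors: the log2 fold change against EV auxin was 1.59 ± 0.36 (SE) in FL and 1.23 ± 0.37 (SE) in H373R. Foxq1 (chromosome 13, 31556134 to 31560976, plus strand), of the same factor family, had 31 to 109 counts per library. It held 1.73, 1.17 and 1.47 TPM in EV untreated, 1.60 and 1.56 TPM in EV auxin, 3.204, 3.06 and 4.25 TPM in FL and 2.36, 2.56 and 2.46 TPM in H373R. The EV groups overlapped, H373R lay above both and FL above H373R. The log2 fold change of Foxq1 against EV auxin was 1.23 ± 0.19 (SE) in FL and 0.68 ± 0.19 (SE) in H373R, and -0.55 ± 0.15 (SE) for H373R against FL.

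Of the receptors, Pdgfra had the largest fold change of the set for FL against EV auxin and the largest drop from FL to H373R. Against EV untreated its FL ratio of 3.26 in CPM was below those of Gata6 (4.29), Sox17 (3.76), Dab2 (3.59) and Gata4 (3.51). It encodes the alpha receptor for platelet-derived growth factors, a surface marker of primitive endoderm, and lies on chromosome 5 (75152292 to 75198215, plus strand), next to the promoter shown above. Its libraries held 1.54, 1.40 and 1.45 TPM in EV untreated and 1.14 and 1.12 TPM in EV auxin, both below every untreated library. FL held 4.42, 4.81 and 4.70 TPM and H373R 2.76, 1.99 and 2.41 TPM. Its log2 fold change was -0.41 ± 0.16 (SE) after auxin, which did not pass, 2.10 ± 0.14 (SE) for FL and 1.12 ± 0.15 (SE) for H373R against EV auxin, and -0.98 ± 0.10 (SE) for H373R against FL.

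Pth1r, the receptor for parathyroid hormone and its related peptide, which acts in parietal endoderm, had another pattern. It lies on chromosome 9 (110722085 to 110747145, minus strand). The EV untreated libraries held 9.77, 8.67 and 8.74 TPM, and EV auxin 13.3 and 15.2 TPM. FL held 13.2, 11.4 and 12 TPM and H373R 15.0, 14.5 and 16.4 TPM. EV untreated was the lowest group with no overlap, while EV auxin overlapped with both FL and H373R on the CPM scale, and every H373R library lay above every FL library. The log2 fold change was 0.63 ± 0.10 (SE) after auxin, -0.16 ± 0.10 (SE) for FL and 0.13 ± 0.099 (SE) for H373R against EV auxin, and 0.29 ± 0.091 (SE) for H373R against FL, of which the first passed. With GC content and length trends removed, the FL difference passed as well. Myl3, on the opposite strand, overlaps Pth1r and had 18 to 59 counts per library. Myl3 was also higher in EV auxin (log2 fold change 1.04 ± 0.23, SE), given with no test since it was named after its values were seen. The library kit marks strand, but whether the counting used it is not given in the sources used here, so reads of the 2 genes may not be fully separated.

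Dab2 was the most abundant of the 9 in FL. It encodes the adaptor that couples cubilin and megalin to endocytosis, and primitive endoderm cells need it for their surface polarity. The gene spans chromosome 15, 6299788 to 6440712 (plus strand), with the 2 start sites shown above. It held 5.30, 7.48 and 7.25 TPM in EV untreated and 5.66 and 6.09 TPM in EV auxin, which overlapped. FL held 20.6, 24.1 and 25.3 TPM and H373R 14.9, 13.01 and 13.9 TPM. The lowest FL library was thus above the highest H373R library, and the lowest H373R library above every EV library. Against EV auxin its log2 fold change was 2.05 ± 0.13 (SE) in FL and 1.28 ± 0.13 (SE) in H373R, and -0.77 ± 0.10 (SE) for H373R against FL.

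**Figure D2:**
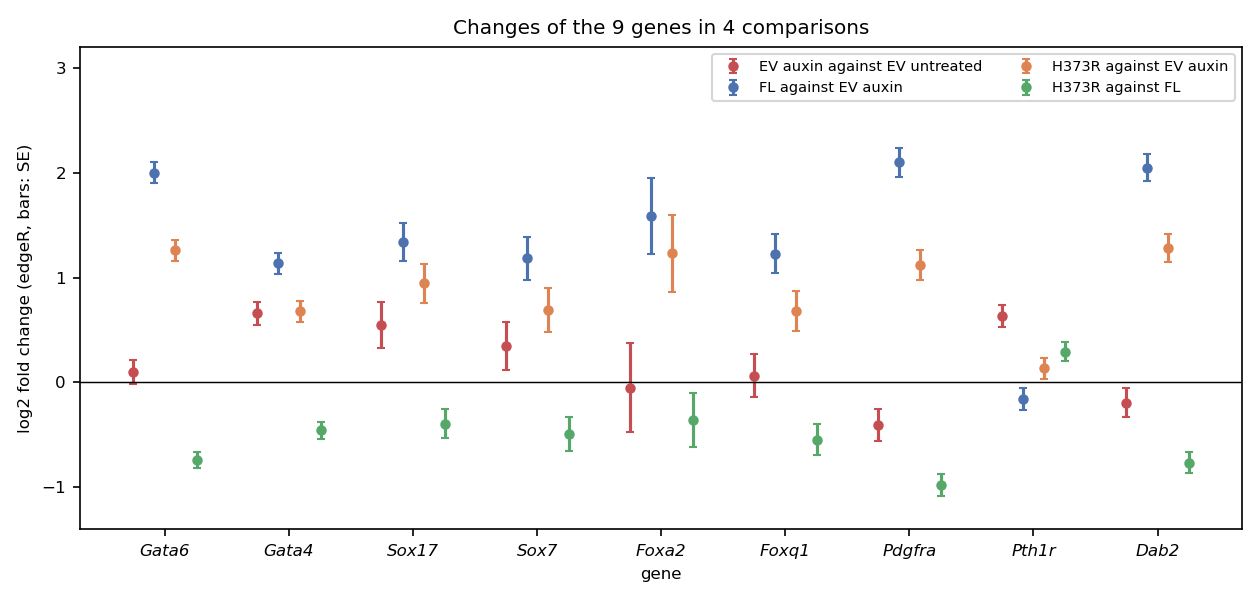
Log2 fold change of each gene (horizontal axis) with its SE in 4 comparisons, as fitted by edgeR. FL against EV auxin is above H373R against EV auxin for 8 genes, from 1.14 (Gata4) to 2.10 (Pdgfra), and Pth1r is the exception.

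Over the 11 libraries the 8 genes other than Pth1r followed each other closely. Their 28 pairs had a Pearson r of 0.765 to 0.98 on log2 CPM (median 0.912). Pth1r had an r of 0.235 to 0.693 with the 8 (median 0.495). The libraries share groups, and with the group means removed the 28 pairs had an r of -0.865 to 0.657 (median 0.085), so the likeness lay between groups rather than between libraries of a group. These values are descriptions over points that share treatment and depth.

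Outside the set, the genes most like Gata6, Pdgfra and Dab2 over the same 11 libraries were sought among the 12725 tested genes whose mean log2 CPM reached 1. Those most like Gata6 were Fstl1, a secreted glycoprotein (r = 0.994), Rhbdd2 (r = 0.992) and F2rl1, a protease-activated receptor (r = 0.991), and Dab2 ranked 14 in that order. Those most like Pdgfra were the laminin chain Lamb1 (r = 0.991), the transcription factor Runx1 (r = 0.980) and the laminin chain Lama1 (r = 0.978). Those most like Dab2 were Cubn, which encodes cubilin (r = 0.996), the lysosomal protease Ctsl (r = 0.987) and Glud1 (r = 0.986), and Gata6 ranked 11. Since they were sought for that pattern, their changes are given with no test: against EV auxin, Cubn was higher in FL by 2.29 ± 0.14 (SE) and Runx1 by 1.28 ± 0.15 (SE) on the log2 scale, and the other 7 by 0.49 to 1.18.

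The wider endoderm program was read from lists that were also written with earlier results known, so their counts describe these libraries only. Beside the counts of this and the following lists stand the shares of all tested genes. These were 11.1% higher and 13.4% lower for FL and 10.03% and 11.7% for H373R against EV auxin. For H373R against FL they were 3.14% higher and 2.82% lower. Among 12 tested ligands, partners and secreted signals, 9 were higher and 1 lower in FL than in EV auxin, with a median log2 fold change of 0.813 (8 higher with DESeq2 and 7 with limma). Cubn went from 3.77 ± 0.564 TPM (SD, n = 2) to 17.8 ± 1.80 TPM (SD, n = 3). Lrp2, which encodes megalin, the partner of cubilin and a cargo receptor of Dab2, went from 10.4 ± 0.892 TPM (SD, n = 2) to 21.1 ± 1.13 TPM (SD, n = 3), which is 1.08 ± 0.11 (SE, edgeR adjusted p 1.15e-05) on the log2 scale. Of the ligands for Pdgfra, Pdgfc rose by 0.57 ± 0.086 (SE, edgeR adjusted p 2.53e-04), and Pdgfa was called higher as well. Lefty1, an inhibitor of Nodal, was the gene that was lower. In H373R against EV auxin, 5 of these 12 genes were higher and none lower by edgeR, DESeq2 or limma (1 lower at an unadjusted edgeR p under 0.05), with a median of 0.496.

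The visceral endoderm list gave 8 higher and 1 lower of 12 in FL against EV auxin, with a median of 1.096. DESeq2 called 5 higher and none lower there, and limma 4 higher and 1 lower. In H373R 7 were higher by edgeR and 5 each by DESeq2 and limma, and none lower by these tools (0 lower at an unadjusted edgeR p under 0.05), with a median of 0.827. Both medians were the same with Afp, Ttr and Apoa1 set against a floor of 3 counts per EV auxin library, since these 3 genes had at most 2 counts there. Ttr, which encodes the transport protein transthyretin, had 1 and 0 counts in EV auxin, 17, 9 and 14 in FL and 20, 20 and 23 in H373R. Apob, the apolipoprotein of secreted lipid particles, was 2.32 ± 0.24 (SE, edgeR adjusted p 1.26e-05) higher in FL and 1.86 ± 0.25 (SE, edgeR adjusted p 1.93e-04) higher in H373R. Hnf4a, a later visceral endoderm factor, was the gene that was lower in FL. It is also the lower gene of the transcription factor list below. Of the 8 visceral genes higher in FL, Cubn, Amn and Ihh were also counted on the ligand list.

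Among 13 parietal endoderm and basement membrane genes, 8 were higher and 1 lower in FL than in EV auxin (median 0.422), and 7 were higher and 1 lower in H373R (median 0.351). Srgn, a proteoglycan core protein, went from 9.13 ± 2.52 TPM (SD, n = 2) to 34.5 ± 1.71 TPM (SD, n = 3) in FL and 22.9 ± 1.74 TPM (SD, n = 3) in H373R. The laminin chain Lama1 rose by 1.18 ± 0.076 (SE, edgeR adjusted p 1.20e-07) and the collagen chain Col4a1 by 1.04 ± 0.075 (SE, edgeR adjusted p 3.06e-07) in FL. Plat, a plasminogen activator, was lower in both. In the direct comparison of H373R with FL, 7 of the 13 were lower and 2 higher, against 1 lower and none higher of the 12 visceral genes (0 higher by DESeq2, limma or an unadjusted edgeR p under 0.05), and the difference between the lists was not tested. The matrix genes lower in H373R than in FL included Lama1 (-0.53 ± 0.065, SE), Col4a1 (-0.54 ± 0.065, SE) and Col4a2 (-0.61 ± 0.0896, SE, edgeR adjusted p 7.40e-04).

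Other endoderm transcription factors moved less. Of 14 listed, 11 were tested, and 5 were higher and 1 lower in FL against EV auxin, with a median of 0.213 (5 higher and none lower with DESeq2, 3 higher and 2 lower with limma). Cited1, a transcriptional coregulator, rose by 0.74 ± 0.16 (SE, edgeR adjusted p 0.003802) and Hhex, a homeobox factor, by 0.49 ± 0.089 (SE, edgeR adjusted p 0.001133). In H373R 3 were higher and none lower by edgeR, DESeq2 or limma (1 lower at an unadjusted edgeR p under 0.05), with Hhex at 0.43 ± 0.087 (SE, edgeR adjusted p 0.003063).

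Of 12 tested inputs from FGF signalling and pluripotency, 4 were higher and 2 lower in FL than in EV auxin (1 higher and 2 lower with limma on TPM), with a median of 0.061. Nanog, whose product opposes GATA6, went from 1160 ± 9.81 TPM (SD, n = 2) to 872 ± 9.13 TPM (SD, n = 3), or -0.35 ± 0.063 (SE, edgeR adjusted p 0.001072) on the log2 scale. In H373R it was -0.23 ± 0.063 (SE, edgeR adjusted p 0.0161). Fgf4, the ligand made by pluripotent cells, fell by 0.57 ± 0.051 (SE, edgeR adjusted p 1.19e-06) on the log2 scale after auxin and was 0.49 ± 0.051 (SE, edgeR adjusted p 1.17e-05) higher in FL than in EV auxin. The adaptor Grb2, which links FGF receptors to ERK, was lower in FL (-0.32 ± 0.0497, SE, edgeR adjusted p 3.63e-04) and in H373R (-0.28 ± 0.049, SE, edgeR adjusted p 0.001236). Fgfr2 was lower in H373R than in FL (-0.40 ± 0.089, SE, edgeR adjusted p 0.0130). Of the 10 embryonic stem cell markers, 4 were higher (Sox2, Esrrb, Dppa5a and Utf1) and 2 lower (Nanog and Zfp42) in FL than in EV auxin. With limma 1 was higher and 2 lower. In H373R against EV auxin, 2 were higher (Esrrb and Dppa5a) and 2 lower (Nanog and Zfp42), and limma gave 1 and 2. Zfp42 was at -0.30 ± 0.049 (SE, edgeR adjusted p 4.57e-04) in FL against EV auxin, and it was called lower in H373R than in FL. Pou5f1, Nanog, Sox2, Klf4 and Esrrb are on both this list and that of the inputs.

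**Figure D3:**
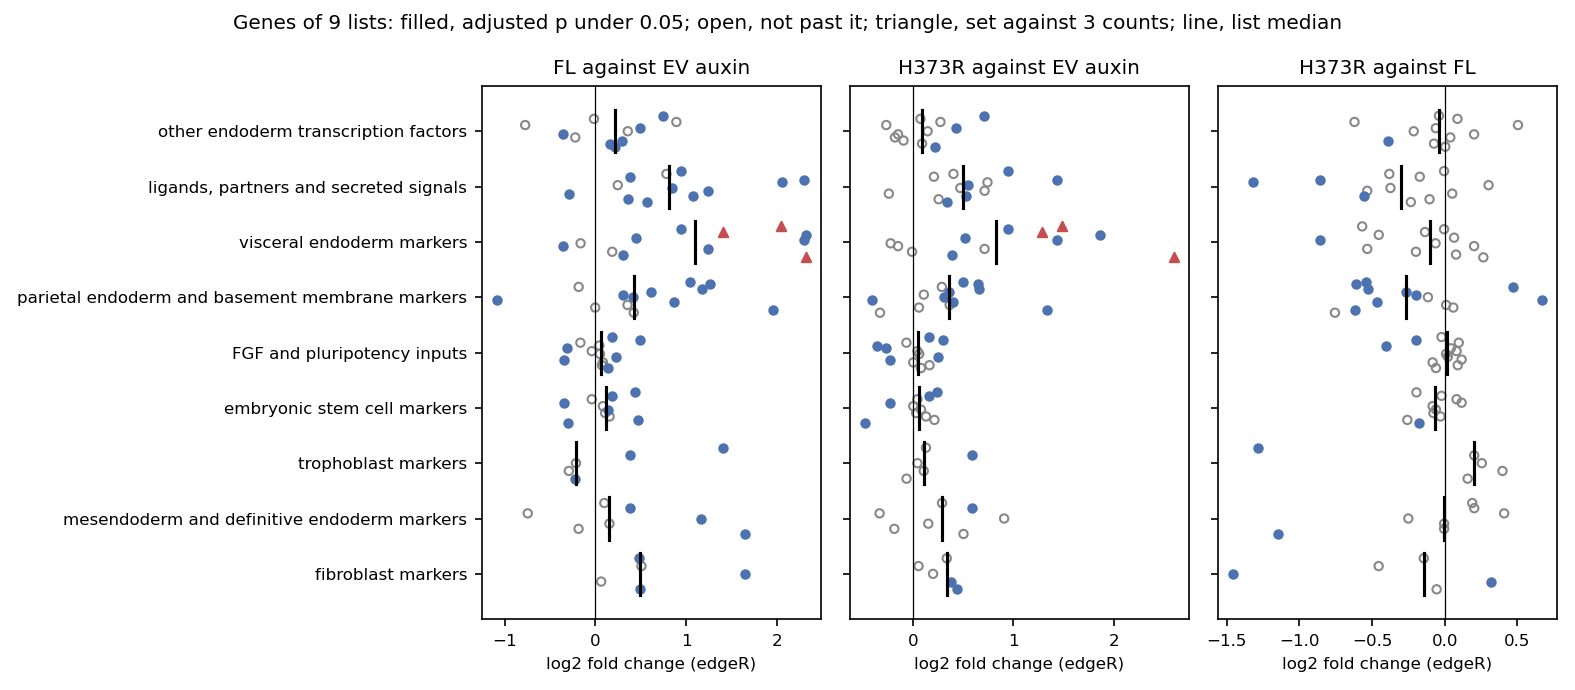
Log2 fold change (horizontal axes) of each tested gene in 9 lists (rows) in 3 panels, which set FL and H373R each against EV auxin and then H373R against FL. The ligand, visceral and parietal lists have medians of 0.813, 1.096 and 0.422 in FL against EV auxin, and the embryonic stem cell list 0.122.

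Some markers of other cell types were also called. The shares of all tested genes beside them were 11.1% higher and 13.4% lower in FL against EV auxin. In FL against EV auxin, 2 of 5 tested trophoblast markers were higher and 1 lower, 3 of 7 mesendoderm and definitive endoderm markers were higher and none lower, and 3 of 5 fibroblast markers were higher and none lower. The mesendoderm count of higher genes was 1 with DESeq2 and 1 with limma, the trophoblast count 1 with each, and the fibroblast count 3 and 2. For the mesendoderm and fibroblast lists none was lower by DESeq2, limma or an unadjusted edgeR p under 0.05. The primitive streak factor T rose by 1.65 ± 0.27 (SE, edgeR adjusted p 5.59e-04), the trophectoderm factor Cdx2 by 1.41 ± 0.33 (SE, edgeR adjusted p 0.006686) and the collagen chain Col3a1 by 1.65 ± 0.25 (SE, edgeR adjusted p 3.04e-04). All 3 were also called lower in H373R than in FL. They were named for their calls and both comparisons share the FL libraries, so this is a description. The summed level of the 9 fibroblast markers was 65.5 to 70.8 TPM in EV untreated, 65.1 to 71.8 in EV auxin, 81.2 to 91.5 in FL and 85.9 to 90.1 in H373R, and the higher genes in FL were Col1a1, Col3a1 and Thy1, in H373R Thy1 and Pdgfrb. The 4 members of that list with too few counts to be tested, Postn, Dcn, Lum and S100a4, were at 0 to 0.312 TPM. The 8 mesendoderm markers summed to 24.5 to 26.7, 27.5 to 29.7, 29.6 to 34.5 and 30.6 to 34.2 TPM in the same order. The 7 trophoblast markers summed to 134 to 142, 122 to 125, 96.9 to 109 and 117 to 121 TPM, where the higher genes in FL were Cdx2 and Eomes, which is also on the mesendoderm list. Gata3 and Elf5, the 2 trophoblast genes with too few counts to be tested, were at no more than 0.470 TPM. The part of these cell types in the levels of the 9 genes was not tested.

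Tested genes near the 9 were counted as well. Of 63 tested genes within 500 kb, 5 (7.9%) were higher and 12 (19.0%) lower in FL than in EV auxin, beside 11.1% and 13.4% of all tested genes. In H373R against EV auxin it was 6 (9.5%) and 12 (19.0%). After auxin 11 (17.5%) were higher and 6 (9.5%) lower, beside 11.3% and 9.4% of all tested genes, but DESeq2 called 6 higher and 7 lower and limma 4 and 7. Between H373R and FL none was higher by edgeR, DESeq2 or limma (7 at an unadjusted edgeR p under 0.05) and 1 was lower. The tested neighbours were uneven, with 27 near Pth1r and 1 near Foxa2. Of the 27 near Pth1r, which was not higher in FL, 0 were higher and 6 lower in FL than in EV auxin. The 5 higher neighbours lay near other members, but this split was not tested, and their share of the 63 was below that of all tested genes. DESeq2 called 4 of the 63 higher and 8 lower in FL than in EV auxin, and limma 4 and 13. Neighbours of Foxq1 are named here after their values were seen. The forkhead gene Foxf2, 64.8 kb away, had 5 and 1 counts in EV auxin and 16, 6 and 11 in FL. It was called higher in FL by edgeR, but no fold is given at these counts. Foxc1, 245.7 kb from Foxq1, had 7, 4 and 2 counts in EV untreated, 6 and 10 in EV auxin and 20, 17 and 26 in H373R. In H373R it was 1.21 ± 0.35 (SE) higher than in EV auxin on the log2 scale, given with no test because of that choice.

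**Figure D4:**
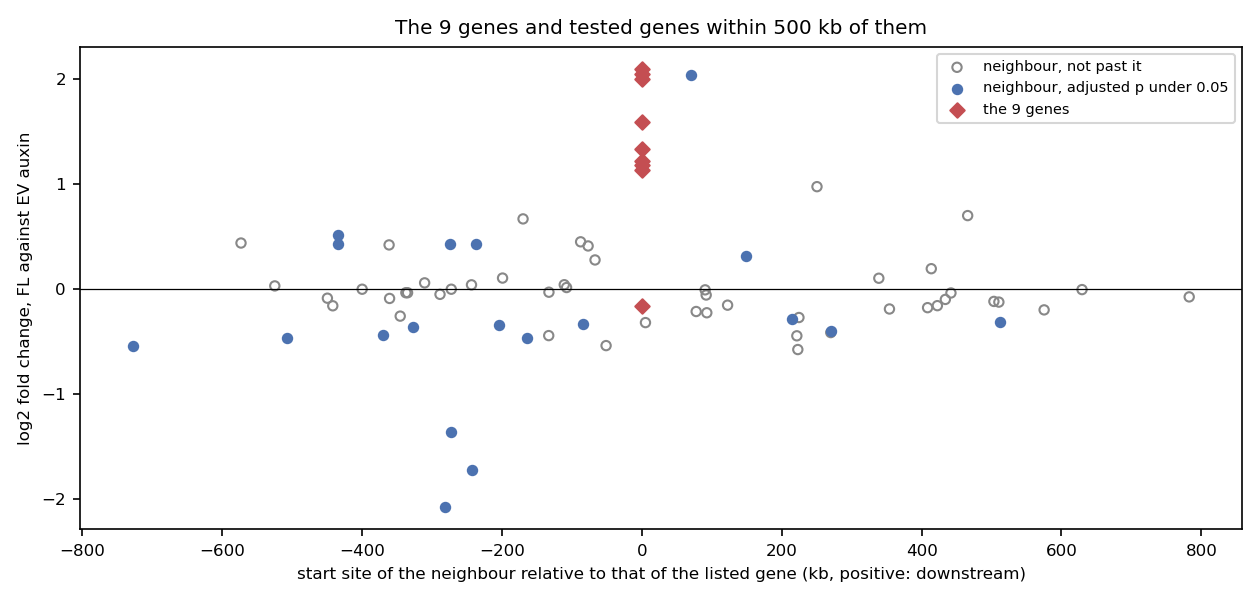
Log2 fold change in FL against EV auxin (vertical axis) of the 9 genes, at 0, and of tested genes within 500 kb of them, by the distance of their start sites in kb (horizontal axis). Apart from Foxf2, with 5 and 1 counts in EV auxin, the neighbours lie below the 8 members that were higher in FL.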

How the data were processed

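Per the labels' protocols, RNA was column-purified and made into strand-marking libraries for an Illumina NovaSeq instrument. The authors deposited raw counts per gene symbol and, for the same reads, TPM (count per gene length, scaled to a fixed total). Per the submitters' processing notes, featureCounts, Subread 2.0.3, DESeq2 and the mm10/GRCm38 build were used. The aligner, annotation and strand setting are not given in the sources used here. Coordinates are from GENCODE M21 (GRCm38), which held 97.0% of the symbols. No row lacked a gene name.

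edgeR 4.0.16 (R 4.3.3) was run on the counts: TMM scaling, filterByExpr by group (16420 genes), 1 group-means model over all 11 libraries, the quasi-likelihood test and Benjamini-Hochberg adjustment over all tested genes, with a threshold of 0.05. CPM is TMM-scaled. The common biological coefficient of variation was 0.0578. Tested on simulated counts, edgeR recovered 164 of 200 simulated 2-fold differences for EV auxin against its untreated control (16183 genes tested), with 10 false calls. The simulated counts held no GC trend and no library that stood apart, unlike EV untreated replicate 1. The number of false calls in the real comparison may therefore differ. Counts set the precision: no fold is given for Foxf2 or for listed genes with at most 3 counts in every EV auxin library.

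The 9 genes and all lists were chosen with earlier results of these data known. Named besides the 9 are up to 3 called genes with the smallest adjusted p per list and comparison, and the 3 genes with the highest r to Gata6, Pdgfra and Dab2. Neighbours of Foxq1, Myl3 and some list members were added after their values were seen. These members were named for their direction, for being on 2 lists or for too few counts (Pdgfa, Lefty1, Hnf4a, Plat, Sox2, Esrrb, Dppa5a, Utf1, Amn, Ihh, Postn, Dcn, Lum, S100a4, Gata3, Elf5). Replicate numbers were not used to pair the libraries in the main model. Alternatives were RLE scaling, DESeq2 1.42.0, no filter, only the libraries compared, a replicate block, limma 3.58.1 on log2(TPM + 1) for genes that reached 1 TPM in 2 libraries, the same with 0.1 added or with all genes kept, removal of GC content and length trends, and leaving out each library in turn.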

Additional observations from a re-analysis of the deposited data

How the results depend on the processing

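The 20 alternatives changed no direction past the threshold. For the 9 genes, log2 fold changes in FL against EV auxin and in both comparisons with EV untreated kept their calls in all 20, except Foxa2 (called in 19) and Pth1r (called in 1) in FL against EV auxin. Counts of the 9 called moved to 5 for H373R against EV auxin under each of the 3 limma settings on TPM. For H373R against FL the count moved to 3 with limma and no TPM minimum. It rose to 7 with only the libraries compared, where Sox7 was lower and Pth1r higher. With GC content and length trends removed it was 7 too, with Sox17 and Sox7 lower, and with no filter it was 6. Leaving out 1 library at a time gave 2 to 4 for EV auxin against EV untreated, 7 to 8 for FL and 5 to 8 for H373R against EV auxin, and 4 to 8 for H373R against FL. Where an EV auxin library was left out, the lone library was taken to vary like the other groups. All ranges of counts over all genes that follow come from leaving out 1 library at a time and do not cover the other alternatives. Over all genes, the 3392 called after auxin became 2016 with only the libraries compared, 5211 with GC content and length trends removed, and 1569 to 5444 without 1 library. The 4016 for FL against EV auxin became 1879 to 5800, and the 3570 for H373R became 5909 with only the libraries compared, 2335 with limma and no TPM minimum, and 1502 to 5397 without 1 library. The 979 for H373R against FL became 1815 with only the libraries compared, 588 with limma and no TPM minimum, 2307 with GC content and length trends removed, and 510 to 2323 without 1 library. Against EV untreated the ranges were 4776 to 7706 for FL and 6012 to 8927 for H373R, and with limma and no TPM minimum the FL calls were 36.9% higher in place of 47.9%. The causes were not tested, and the limma settings on TPM use fewer genes or another scale. Of the other named genes, 181 values fell short of the threshold, 7 newly passed it and 3138 did neither.

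With the replicate number as a block, 7 of the 9 genes were called for H373R against EV auxin (Foxa2 lost) and the other counts of the 9 were as without it. Over all genes the block gave 3197 after auxin, 3978 for FL and 3532 for H373R against EV auxin, and 942 for H373R against FL. Same-numbered libraries of different groups deviated from their group means with an r of -0.087 to 0.282 (median -0.016, 15 pairs), against -0.197 to 0.134 for other pairs. In 10 of 30 cases a library matched its own number best in another group. Between EV untreated and FL, every library matched its own number best (r of 0.282, 0.119 and 0.096). The deviations of the 2 EV auxin libraries mirror each other, so their cases are not independent. Whether the numbers pair the libraries is thus not settled by these values. Depth limits Foxa2 most, with 4 to 25 counts per library.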

Other observations

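Lists that the report describes only against EV auxin were also compared with EV untreated. In H373R, 11 of the 13 parietal endoderm and basement membrane genes and 8 of the 12 visceral endoderm markers were higher than in EV untreated (edgeR, adjusted p under 0.05), beside 22.3% of all tested genes. Among the mesendoderm markers it was 4 of 7 and among the trophoblast markers 3 of 5. Of the embryonic stem cell markers 1 of 10, Klf4, was higher. It was 7 of 12 for the ligand list, 3 of 5 for the fibroblast list and 5 of 11 for the other transcription factors. Of the FGF and pluripotency inputs, 1 of 12 was higher. Lower in H373R were 5 of the 10 embryonic stem cell markers and 7 of the 12 inputs, beside 3627 of all 16420 tested genes. So were 2 of the 11 transcription factors and 1 of the 5 trophoblast markers. In FL it was 9 of 13 parietal, 9 of 12 visceral, 2 of 7 mesendoderm and 1 of 5 trophoblast markers, beside 17.7%. It was 4 of 10 for the embryonic stem cell markers, 11 of 12 for the ligand list and 4 of 5 for the fibroblast list. Of the other transcription factors 6 of 11 were higher, and of the inputs 1 of 12. Lower in FL were 3 of 10 embryonic stem cell markers and 6 of 12 inputs, beside 3153 of all 16420 tested genes. So were 2 of 11 transcription factors, 1 of 12 visceral and 1 of 5 trophoblast markers. Plat, lower in FL and H373R than in EV auxin, had risen after auxin by 1.05 ± 0.11 (SE, edgeR adjusted p 9.33e-06) on the log2 scale. Lefty1 had risen after auxin by 1.13 ± 0.094 (SE, edgeR adjusted p 4.76e-07), and Apob had fallen by 1.27 ± 0.27 (SE, edgeR adjusted p 0.003251).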
